A study of Mus musculus with 4 samples.

Results

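The enzymes described here are those of the tricarboxylic acid cycle, measured as RNA in BEKO, a line of mouse thymic lymphoma cells, grown to a low or a high density. They are the 9 genes Cs, Idh2, Idh3a, Ogdh, Dlst, Suclg1, Fh1, Mdh1 and Mdh2, chosen by symbol as enzymes of the cycle other than succinate dehydrogenase, out of 25630 rows in the deposited table. All 9 symbols were found. Each density is represented by 2 libraries, the genotype of all 4 is given as WT, and no drug, cytokine or other agent is named for either group. The labels do not say how many cells were plated, for how long they grew or whether each library had a culture of its own, so the p-values reflect the spread between these libraries only, which may be technical. Values are TPM, which are scaled by transcript length and to a fixed total in each library. A row was tested when its mean over the 4 libraries was at least 1 TPM, and called when its limma p, adjusted by the Benjamini-Hochberg method over the 10936 rows tested, was under 0.05.

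The cycle runs in the mitochondrial matrix. It joins acetyl-CoA to oxaloacetate as citrate, oxidises that stepwise back to oxaloacetate, and hands the electrons to the respiratory chain as NADH and as reduced flavin. Its intermediates are also drawn off for lipid, amino acid and haem synthesis, which is why dividing lymphocytes refill it from glutamine and pyruvate.

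The T lineage markers were abundant in all 4 libraries, with summed levels of 6159 to 7576 TPM over 8 genes. Of these, 2 were called by limma, in opposite directions. Rag1, a subunit of the recombinase, fell from 609 and 480.2 TPM at low to 185 and 182 TPM at high density (adjusted p = 0.00283 by limma), and Trdc, the T cell receptor delta constant gene, rose from 18.1 and 16.0 to 101 and 77.1 TPM (adjusted p = 0.00091 by limma). Of 15 markers of B, myeloid, epithelial, endothelial and erythroid cells, 7 (Ms4a1, Lyz2, Epcam, Krt18, Cdh5, Hba-a1 and Hbb-b1) were listed at 0 in each library. The endothelial marker Pecam1 was at 62.5 and 51.8 TPM at low and 47.9 and 37.4 TPM at high density (adjusted p = 0.364 by limma), the erythroid marker Alas2 lay between 0.749 and 4.34 TPM, and the other 6 reached at most 1.15 TPM, in the B cell marker Cd79a. The 3 stromal markers Col1a1, Col1a2 and Pdgfra summed to 44.9 TPM in low density library 1 and to between 0.263 and 0.536 TPM in the other libraries. Low density library 1 also had 15553 rows above 0, against 13605 to 13892 in the others. It held 35 rows at 5 TPM or more that were under 0.5 TPM in every other library, and the others held 0 to 2 such rows each. The median log2(TPM + 1) of the tested rows was 5.34 in high density library 2 and lay between 4.94 and 5.05 in the other 3. The part of these differences in the results below was not tested, and values without each library are given where a result rests on them. In a bulk sample, fewer cells of a kind and less RNA per cell cannot be told apart.

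No cycle enzyme was called: limma called 0 of the 9, against 6.68% of all rows tested. At an unadjusted p under 0.05 there were 3, Mdh2, Suclg1 and Idh3a, all lower at high density. In the table as a whole 23.5% of rows were under that p in either direction and 7.76% in the lower one. All 9 genes passed the filter on low values. In 5 genes (Cs, Idh3a, Suclg1, Fh1 and Mdh2) both high density libraries lay below both low density libraries, an arrangement found in 20.0% of tested rows. Dlst alone had the opposite arrangement, found in 34.7% of tested rows, and in Idh2, Ogdh and Mdh1 the groups overlapped. The median log2 fold change was −0.26 over the 9 genes and 0.12 over all rows tested, and 8 of the 9 lay below that second value. That count was 8 with each library centred on its median, where the medians were −0.44 and −0.063, and 5 without high density library 2, where they were −0.14 and −0.023. After quantile normalisation the count was 7, with medians of −0.16 and −0.012.

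**Figure D1:**
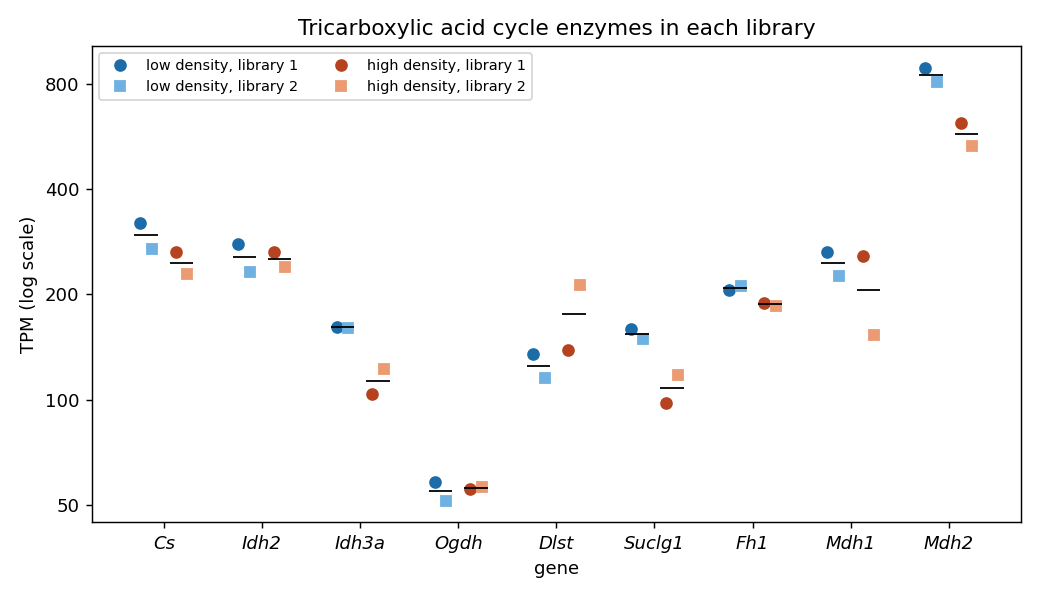
TPM of the 9 cycle enzymes (log scale) in each of the 4 libraries, with a short bar at each group mean. Mdh2 stands highest and Ogdh lowest in every library, and the high density points lie below the low density points for Cs, Idh3a, Suclg1, Fh1 and Mdh2.

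Together the 9 RNAs made up 0.247% and 0.222% of all TPM in the low density libraries and 0.199% and 0.185% in the high density libraries. The summed levels were 2472 and 2224 TPM at low density and 1992 and 1846 TPM at high density, so the groups did not overlap. Mdh2 was a large share of that sum. Without it the sums were 1583 and 1416 TPM at low density and 1374 and 1316 TPM at high density, still with no overlap. This arrangement was not particular to the enzymes. The T lineage markers summed to 7576 and 7033 TPM at low density and 6723 and 6159 TPM at high density.

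The order of levels was steady at its ends. Mdh2 was first and Ogdh last among the 9 in every library, and Fh1 held place 5 in each. Cs, Idh2 and Mdh1 held places 2, 3 and 4 in that order in both low density libraries, although the range of each overlapped that of the next. In both high density libraries Idh2 held place 2 and Cs place 3. These gaps between genes were not tested. Idh3a and Suclg1 differed by less than the SD of Suclg1 at low density, with means of 161 ± 1.04 and 154 ± 7.04 TPM (SD, n = 2 libraries). Within every library Idh3a was nonetheless the higher of the pair. Dlst held place 8 in both low density libraries and places 6 and 4 at high density. Among all tested rows, Mdh2 stood between the percentiles 98.3 and 99.0 of level in every library and Ogdh between 61.6 and 67.2.

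The first step, in which acetyl-CoA and oxaloacetate condense to citrate, is carried by Cs, citrate synthase. Its level was 320.0 and 270.0 TPM in the low density libraries and 264 and 228 TPM in the high density libraries. High density library 1 came within a few TPM of low density library 2, although the groups did not overlap. The log2 fold change, on the scale of log2(TPM + 1) as for all others here, was −0.26 ± 0.23 (SE; adjusted p = 0.538 by limma). Cs transcripts share 91.9% identity over 1522 bases with those of Csl, a near copy, so reads could be divided between them in a way that the sources used here do not describe. Csl reached at most 0.604 TPM. Transcripts of Gm48254, a processed pseudogene, share 92.1% identity over 469 bases with Cs. It had no row under that symbol, so no level is given for it.

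Isocitrate is oxidised by separate enzymes, which differed in their values. Idh2, the mitochondrial NADP+ enzyme, stood at 279 and 232 TPM at low and at 265 and 239 TPM at high density, each high density value lying between the low density ones. Its log2 fold change was −0.014 ± 0.23 (SE; adjusted p = 0.981 by limma), with a 95% interval of −0.51 to 0.49. Idh3a encodes the catalytic alpha subunit of the NAD+ enzyme, the form that drives the cycle forward. Its level was 162 and 160.3 TPM at low density and 104 and 123 TPM at high density. The low density pair was nearly identical and both high density libraries lay below it. The log2 fold change was −0.51 ± 0.23 (SE; adjusted p = 0.212 by limma), and it was called when high density library 2 was left out (log2 fold change −0.63, adjusted p = 0.0365 by limma).

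The beta and gamma subunits of the same NAD+ enzyme had other values. Idh3b was at 227 and 222 TPM at low and 264 and 218 TPM at high density, and Idh3g at 224 and 207 TPM at low and 209 and 224 TPM at high density, so that in both genes the groups overlapped. Within each library the ratio of Idh3a to Idh3b was 0.714 and 0.723 at low density and 0.394 and 0.562 at high density. For Idh3a over Idh3g the ratios were 0.723 and 0.774 at low density and 0.497 and 0.548 at high density. Such ratios do not depend on the scaling of a library, and the alpha subunit was the lower partner in all 4 libraries and lower still in both high density ones. With 2 libraries in each group an exact permutation test of a ratio cannot go below p = 0.333, so none is given. The ratio of Idh3b to Idh3g ranged from 0.975 to 1.26 and its groups overlapped. Idh2 exceeded Idh3a throughout, by 1.72 and 1.45 times at low density and 2.55 and 1.95 times at high density.

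The 2-oxoglutarate dehydrogenase complex turns 2-oxoglutarate into succinyl-CoA. Ogdh, its first component, was at 58.1 and 51.6 TPM at low and 55.6 and 56.5 TPM at high density. These values overlapped, and the log2 fold change was 0.03 ± 0.24 (SE; adjusted p = 0.954 by limma), with a 95% interval of −0.50 to 0.57. Dlst, the second component, carries the lipoyl arm that accepts the succinyl group. It was at 135 and 115 TPM at low and at 139 and 213 TPM at high density. High density library 1 barely exceeded the low density libraries, and high density library 2 stood well above all others. Its log2 fold change was 0.46 ± 0.26 (SE; adjusted p = 0.316 by limma). In the ratio of means it was 1.11-fold higher when high density library 2 was left out, and 1.70-fold when high density library 1 was, in which case Dlst was called (adjusted p = 0.0175 by limma).

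Dlst outnumbered Ogdh in every library. The ratio of the pair was 2.32 and 2.24 at low density and 2.51 and 3.77 at high density, with no overlap but with most of the difference in high density library 2. Dld, the third component, which the pyruvate dehydrogenase complex also uses, was at 204 and 190.4 TPM at low and 159 and 235 TPM at high density (adjusted p = 0.960 by limma). It was lowest in high density library 1 and highest in high density library 2.

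Succinyl-CoA synthetase makes a nucleoside triphosphate from succinyl-CoA. Suclg1 encodes the alpha subunit common to its ADP and GDP forms. The level of Suclg1 was 159 and 149 TPM at low density and 98.0 and 118 TPM at high density, with the high density libraries well below both others. Its log2 fold change was −0.52 ± 0.23 (SE; adjusted p = 0.207 by limma), and leaving out high density library 2 brought it past the threshold (log2 fold change −0.65, adjusted p = 0.0333 by limma). Sucla2, the beta subunit of the ADP form, was at 108 and 104 TPM at low and 86.5 and 101 TPM at high density. Suclg2, the beta subunit of the GDP form, was at 45.8 and 44.9 TPM at low and 36.1 and 41.0 TPM at high density. Neither beta subunit was called (adjusted p = 0.682 by limma and 0.624).

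Within the libraries, Suclg1 was 1.48 and 1.43 times the level of Sucla2 at low density and 1.13 and 1.17 times at high density. Against Suclg2 it was 3.48 and 3.33 times at low density and 2.71 and 2.87 times at high density. Both ratios of the alpha to a beta subunit were thus lower in both high density libraries. The ratio of Sucla2 to Suclg2, the beta subunits, ranged from 2.33 to 2.45 and was slightly higher in both high density libraries.

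**Figure D2:**
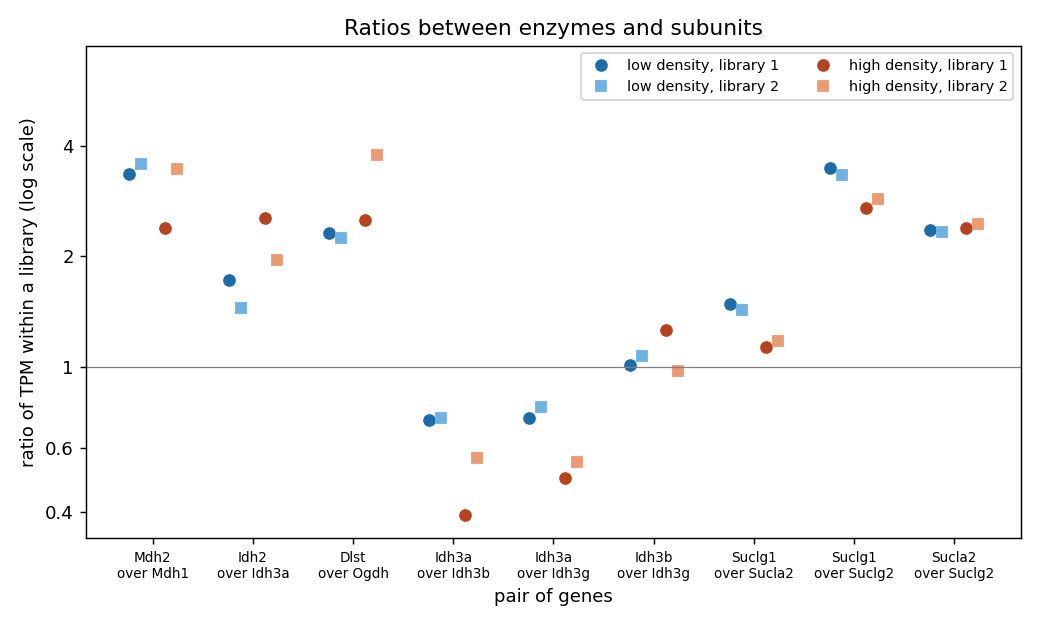
Ratios of TPM between enzymes or subunits within each library (log scale), computed after the data had been seen. The ratios of Idh3a to its partner subunits and of Suclg1 to its partners are lower in both high density libraries, while the groups overlap for Idh3b over Idh3g and lie close together for Sucla2 over Suclg2.

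Fh1, fumarase, hydrates fumarate to malate in the matrix and, as a form without its targeting peptide, in the cytosol. It was at 205 and 211 TPM at low and 189.6 and 185 TPM at high density. Both groups were tight, with SDs of 4.26 and 3.32 TPM, and they did not overlap. The size of the difference was small, with a log2 fold change of −0.15 ± 0.22 (SE, adjusted p = 0.722 by limma). Its 95% interval was −0.64 to 0.33. Moderation drew this SE towards the spread of other rows, so it does not reflect the tight Fh1 groups alone.

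Malate is oxidised to oxaloacetate by Mdh2 in the matrix, while Mdh1 works in the cytosol and, like Mdh2, takes part in the malate-aspartate shuttle. Mdh2 was the most abundant of the 9, at 889 and 808 TPM at low and at 617 and 530.3 TPM at high density. Both high density libraries were lower by a clear margin, 1.48-fold in the ratio of means. Its log2 fold change of −0.57 ± 0.22 (SE; adjusted p = 0.149 by limma, 95% interval −1.05 to −0.08) was the lowest among the 9, at percentile 9.65 of all rows tested. Mdh2 was called without high density library 1 (log2 fold change −0.68, adjusted p = 0.0252 by limma) and not without high density library 2 (−0.46, 0.114).

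Mdh1 was at 265 and 226 TPM at low density and at 258 and 153 TPM at high density. High density library 1 lay inside the low density range and high density library 2 far under it. The log2 fold change was −0.30 ± 0.27 (SE; adjusted p = 0.558 by limma), and it came to 0.08 when high density library 2 was dropped and to −0.67 when high density library 1 was, where it was called (adjusted p = 0.0273 by limma). The ratio of Mdh2 to Mdh1 was 3.35 and 3.58 in the low density libraries against 2.39 and 3.46 in the high density ones, and the groups overlapped.

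The stretch before the start of a gene is shown for Mdh2, the most abundant enzyme and the one with the lowest fold change, for Suclg1, which had the same arrangement of libraries, for Dlst, which had the opposite one, and for Pcx, a called neighbour of the cycle described further on. Each is the 250 bases upstream of the gene's farthest-upstream RefSeq start in the build GRCm38.p6, whereas the notes to the deposited table name mm9. They lie on the plus strand at chr5:135778399-135778648 for Mdh2, chr6:73248255-73248504 for Suclg1, chr12:85110583-85110832 for Dlst and chr19:4510222-4510471 for Pcx. Capitals mark every match to 1 of 5 motifs, searched on both strands.
Mdh2: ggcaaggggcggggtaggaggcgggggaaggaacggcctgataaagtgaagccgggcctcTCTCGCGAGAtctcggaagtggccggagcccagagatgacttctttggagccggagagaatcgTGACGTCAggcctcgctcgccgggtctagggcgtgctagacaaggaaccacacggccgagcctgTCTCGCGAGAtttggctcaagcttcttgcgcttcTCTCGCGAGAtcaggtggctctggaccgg
Suclg1: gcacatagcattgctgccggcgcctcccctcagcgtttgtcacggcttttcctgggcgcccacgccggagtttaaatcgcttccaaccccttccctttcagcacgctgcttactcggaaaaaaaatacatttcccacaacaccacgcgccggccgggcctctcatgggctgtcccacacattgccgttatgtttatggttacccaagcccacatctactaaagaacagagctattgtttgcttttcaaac
Dlst: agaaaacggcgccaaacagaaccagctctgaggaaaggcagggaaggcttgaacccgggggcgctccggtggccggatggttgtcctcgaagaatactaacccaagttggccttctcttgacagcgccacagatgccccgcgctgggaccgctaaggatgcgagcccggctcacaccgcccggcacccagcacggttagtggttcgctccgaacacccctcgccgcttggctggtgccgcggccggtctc
Pcx: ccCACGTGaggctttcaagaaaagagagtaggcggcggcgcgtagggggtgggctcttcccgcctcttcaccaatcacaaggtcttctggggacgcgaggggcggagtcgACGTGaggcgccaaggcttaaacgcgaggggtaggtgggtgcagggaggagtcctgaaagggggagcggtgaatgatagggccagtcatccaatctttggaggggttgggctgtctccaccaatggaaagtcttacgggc

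The motifs were ACGTG, the core of the hypoxia response element; CACGTG, the E-box, which holds ACGTG on each strand; AAGGTCA, a nuclear receptor half-site of the ERR type; TGACGTCA, the cAMP response element; and TCTCGCGAGA, the 1 palindrome of 10 bases that recurs within the window of an enzyme, which was therefore chosen from these sequences and is known as a motif bound by the factor BANP. Of the 9 enzymes 8 had a window, taken at the farthest-upstream start. Ogdh had 6 windows at separate starts, and only the farthest upstream is reported. Mdh2 held TCTCGCGAGA 3 times, at positions −190, −63 and −29 from the start, and TGACGTCA once. Among 32807 windows of this length, 0.390% held that palindrome at all and 2 held it 3 times. The other window with 3 belongs to Styxl1, which starts on the opposite strand and shares 237 of its 250 bases with the Mdh2 window. Styxl1 was at 0.273 and 0.961 TPM at low and 0.544 and 1.95 TPM at high density, far below Mdh2 on the other side of the same stretch.

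ACGTG was present in the windows of Ogdh and Mdh1, or 25% of the 8, and in 16.6% of all windows. Shares over all windows count every start of a gene, and those of the enzymes only the farthest-upstream start, so they are not like for like. TGACGTCA was present in Ogdh and Mdh2, and in 1.55% of all. For AAGGTCA and CACGTG there was no match in the 8 windows, and their shares among all windows were 4.08% and 6.02%. Suclg1 and Dlst held none of the 5. Pcx held ACGTG at separate places, once within CACGTG.

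The precision of these comparisons can be read from the intervals. The 95% interval of the log2 fold change left out 0 in 3 of the 9, Mdh2, Suclg1 and Idh3a, before adjustment for the number of rows tested. It reached a 2-fold fall in those same 3 and a 2-fold rise in Dlst. For Cs, Idh2, Ogdh, Fh1 and Mdh1 it stayed within 2-fold in both directions. The ratios of mean TPM ran from 0.676 for Mdh2 to 1.41 for Dlst.

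**Figure D3:**
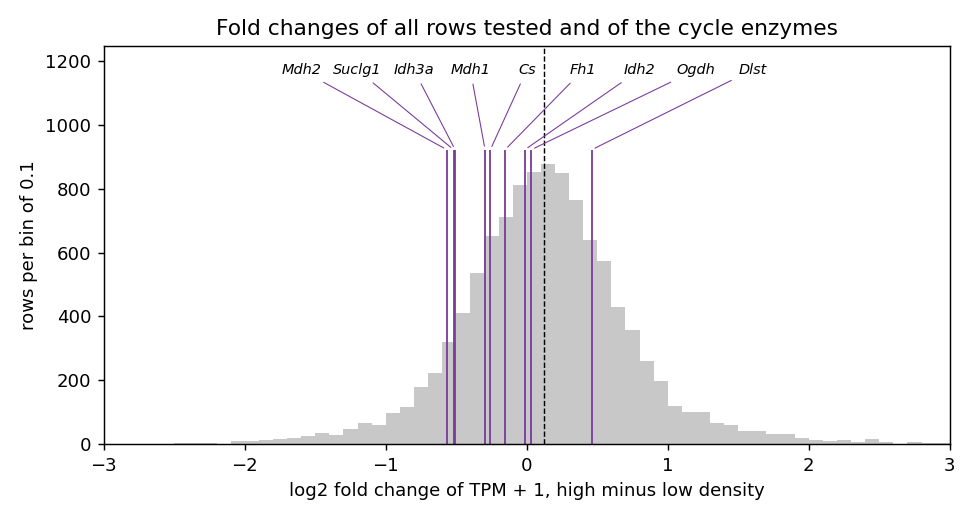
Number of rows in bins of log2 fold change (high minus low density) for the tested rows between −3 and 3, with a line for each cycle enzyme and a dashed line at the median of all rows, 0.12. Dlst lies above the median and the other 8 enzymes below it, with Mdh2 lowest at −0.57.

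Leaving out either high density library changed which enzymes were called. Without high density library 1, 3 were called, Dlst higher and Mdh1 and Mdh2 lower, when 29.9% of all rows were called. Without high density library 2, 2 were called, Idh3a and Suclg1, both lower, when 22.1% of all rows were. These fits rest on the spread of the low density pair, and the lone library is assumed to vary like that pair. Without either low density library 0 of the 9 were called, with 2.93% and 2.13% of all rows called when library 1 or library 2 of low density was left out. With low density library 1 left out, the median log2 fold change was −0.17 over the 9 enzymes and 0.18 over all rows tested. With library 2 of that density left out, these medians were −0.38 and 0.074.

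**Figure D4:**
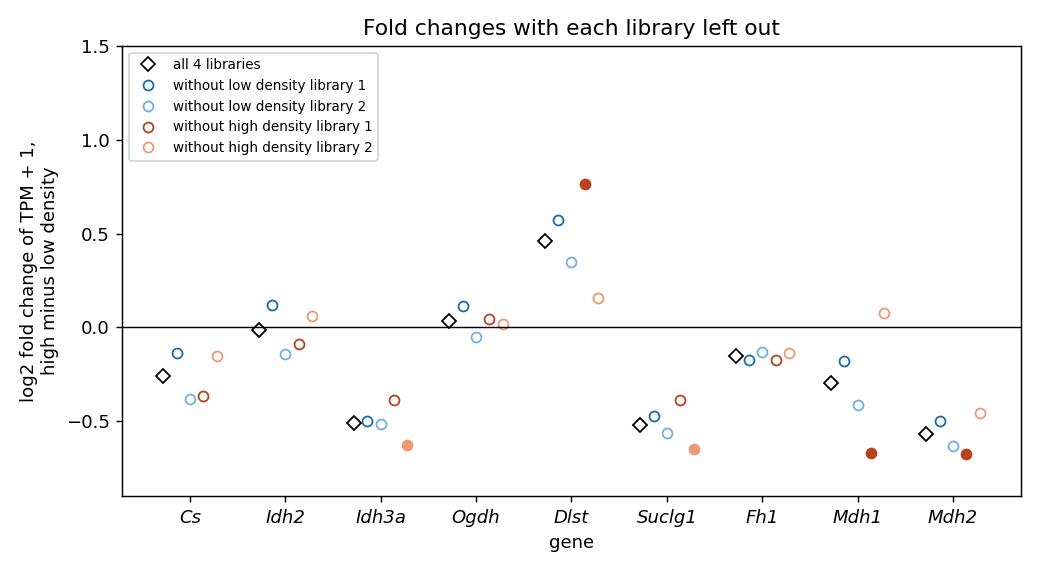
Log2 fold change (high minus low density) of each enzyme with all 4 libraries (diamonds) and with each library left out (circles), filled where limma called the gene. Filled points appear for Dlst, Mdh1 and Mdh2 without high density library 1 and for Idh3a and Suclg1 without high density library 2.

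The rest of the cycle was examined from lists of its other subunits. Of 5 further subunits of the matrix cycle (Idh3b, Idh3g, Dld, Sucla2 and Suclg2, with the values given above), 0 were called by limma and 0 had an unadjusted p under 0.05. The shares of all rows tested were 6.68% and 23.5%, so counts of 0 among so few genes do not set them apart.

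Of the 4 subunits of succinate dehydrogenase, the step that also belongs to the respiratory chain, 0 were called and 1 had an unadjusted p under 0.05. Among all rows tested 6.68% were called and 23.5% were under that p, 7.76% in the lower direction. Sdhb, its iron-sulphur subunit, was at 389 and 458 TPM at low and 255 and 296 TPM at high density. Its log2 fold change was −0.62 ± 0.23 (SE, adjusted p = 0.127 by limma), and it ran from −0.73 to −0.50 with a library left out. Sdhc and Sdhd were also lower without overlap of the groups, at −0.29 and −0.19 (adjusted p = 0.471 and 0.653 by limma). Sdha overlapped, with a log2 fold change of 0.03 (adjusted p = 0.949 by limma).

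Isoforms outside the matrix cycle were measured as well. Of 4 such genes 3 were tested and 0 called, also 0 at an unadjusted p under 0.05. The shares of all rows tested were 6.68% and 23.5%. Idh1, the cytosolic NADP+ isocitrate dehydrogenase, was at 57.1 and 40.6 TPM at low and at 60.2 and 17.6 TPM at high density, so that both its highest and its lowest value were found at high density (adjusted p = 0.501 by limma). Aco1, the cytosolic aconitase that also binds iron-responsive RNA, was at 53.9 and 41.4 TPM at low and 38.3 and 35.7 TPM at high density (adjusted p = 0.461 by limma). Ogdhl, a relative of Ogdh, was at 15.9 and 15.0 TPM at low and 11.7 and 10.2 TPM at high density (adjusted p = 0.365 by limma).

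Pyruvate enters the matrix through the carrier of Mpc1 and Mpc2 and becomes acetyl-CoA in the pyruvate dehydrogenase complex. Of these 6 genes 0 were called, also 0 at an unadjusted p under 0.05, against 6.68% and 23.5% of all rows tested. The median log2 fold change of the 6 was −0.20. Pdha1, the catalytic alpha subunit, was at 230.3 and 207 TPM at low and 252 and 255 TPM at high density (adjusted p = 0.607 by limma). Pdhb, its beta partner, was at 386 and 389 TPM at low and 315 and 358 TPM at high density (adjusted p = 0.623 by limma). Mpc2 had a limma adjusted p of 0.473 and Dlat, the lipoyl-bearing component, one of 0.561.

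Of the 4 kinases that switch this complex off, Pdk1 and Pdk3 were called, while Pdk2 (0.241 to 0.786 TPM) and Pdk4 (0 to 0.0228 TPM) lay below the filter and were not tested. Of 5 tested kinases and phosphatases 2 rose and 0 fell, against 4.57% of all rows called higher. Pdk1, a pyruvate dehydrogenase kinase and known target of hypoxia-inducible factor, was at 72.3 and 60.3 TPM at low and 312 and 243 TPM at high density. It rose 4.19-fold (log2 fold change 2.04 ± 0.24 SE, adjusted p = 0.00095 by limma), with each high density library above 3 times either low density one. Pdk3, another such kinase, was at 45.9 and 42.0 TPM at low and 111 and 79.1 TPM at high density and rose 2.17-fold (log2 fold change 1.08 ± 0.26 SE, adjusted p = 0.0310 by limma). The phosphatase gene Pdp1, which opposes them, was at 9.18 and 8.76 TPM at low and 12.1 and 21.2 TPM at high density (adjusted p = 0.186 by limma).

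Among 9 genes through which intermediates enter or leave the cycle, 7 were tested, 2 rose and 0 fell, against 4.57% of all rows called higher and 2.11% lower. Pcx, pyruvate carboxylase, makes oxaloacetate directly from pyruvate. It was at 19.2 and 16.0 TPM at low and 67.8 and 42.8 TPM at high density, and rose 3.14-fold (log2 fold change 1.57 ± 0.29 SE, adjusted p = 0.00997 by limma). Me2, the mitochondrial malic enzyme, which takes malate back to pyruvate, was at 55.4 and 47.5 TPM at low and 141 and 93.1 TPM at high density. It rose 2.27-fold (log2 fold change 1.14 ± 0.27 SE, adjusted p = 0.0278 by limma). Both calls were lost without either low density library and under median centring, with adjusted p-values by limma of 0.0625, 0.196 and 0.0806 for Pcx and of 0.128, 0.416 and 0.128 for Me2.

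The other 5 tested genes of that list were not called. Pck2, which makes phosphoenolpyruvate from oxaloacetate in the matrix, was at 22.8 and 14.5 TPM at low and 25.0 and 32.2 TPM at high density (adjusted p = 0.250 by limma). Acly, which splits exported citrate, was at 330.2 and 233 TPM at low and 269 and 151 TPM at high density (adjusted p = 0.388 by limma). The shuttle transaminases Got1 and Got2 had limma adjusted p-values of 0.434 and 0.459, with log2 fold changes of −0.35 and −0.30.

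Over all 44 neighbouring genes, 38 were tested, 4 rose (4.57% of all rows did) and 1 fell, and the median log2 fold change was −0.020. The gene that fell, as 2.11% of all rows did, was Lipt2, which transfers octanoate in the making of the lipoyl arm that Dlst carries. It was at 18.7 and 18.2 TPM at low and at 4.97 and 9.92 TPM at high density (log2 fold change −1.27 ± 0.34 SE, adjusted p = 0.0492 by limma). Leaving out low density library 1 or 2 ended the calls of Pdk3 (adjusted p = 0.219 and 0.464 by limma) and Lipt2 (0.429 and 0.507) as well. That of Pdk3 was also lost when each library was centred on its median (0.122), and that of Pdk1 was held in each of these settings.

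**Figure D5:**
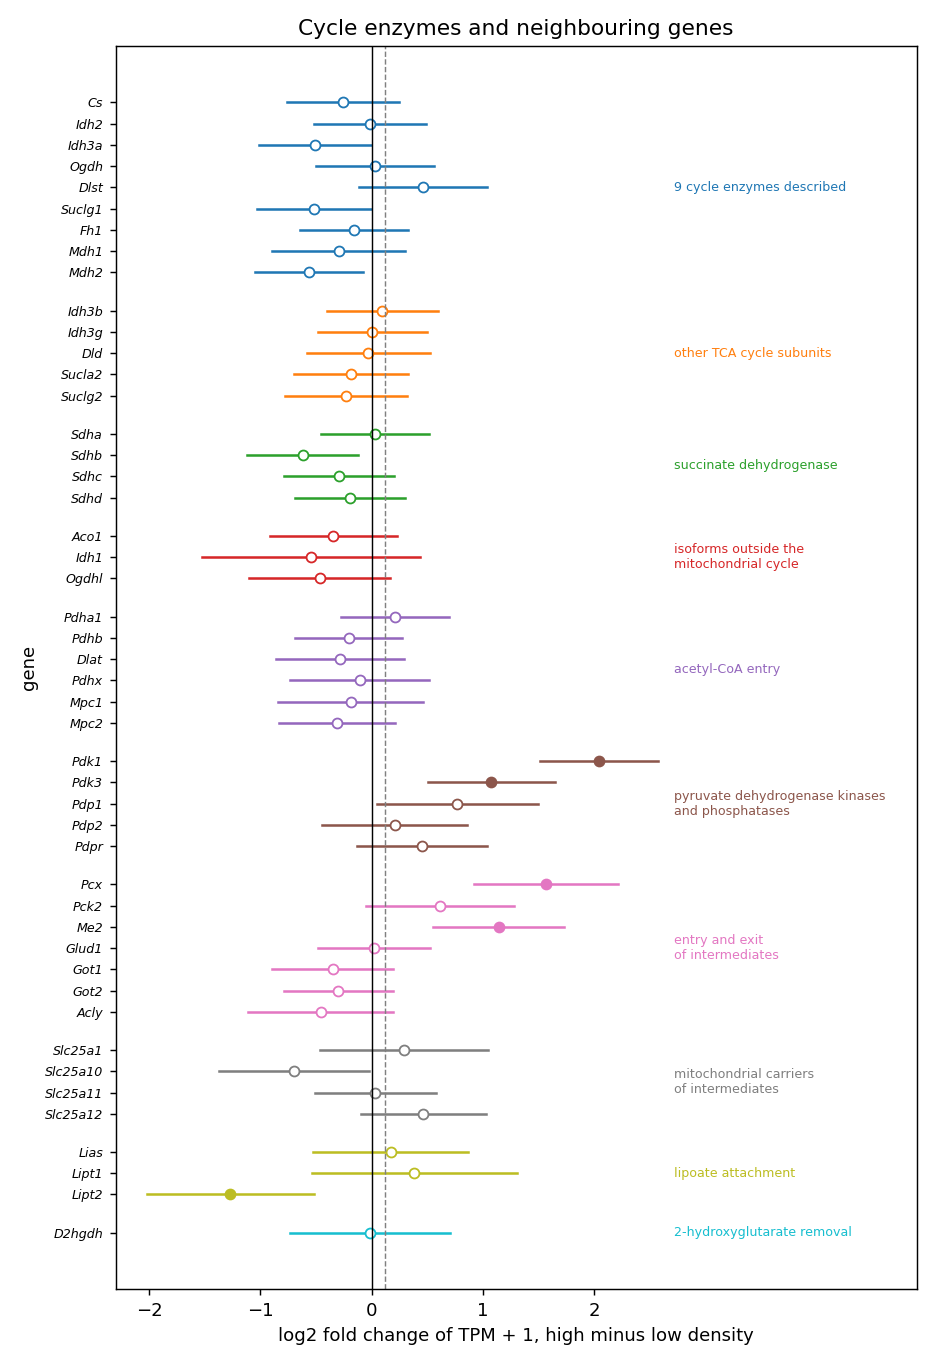
Log2 fold change (high minus low density) with its 95% interval for the 9 cycle enzymes and the 38 tested neighbouring genes, grouped by list, filled where limma called the gene; the dashed line is the median of all rows, 0.12. Filled points are Pdk1, Pdk3, Pcx, Me2 and Lipt2, and there are none among the cycle enzymes.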

How the data were processed

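RNA of 4 libraries was measured, 2 per density. The authors deposited TPM values, 1 column per library, with a total of 1000000 in each. No role is stated for the build mm9 and DESeq2 1.2.10, which the submitters' processing notes list; per the labels' protocols the libraries were strand-specific. For the aligner, counter, annotation and gene lengths nothing is stated in the sources used here. TPM keeps no depth, so no counting error is given. Columns were matched to samples by the column name in each description.

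From these values limma 3.58.1 (R 4.3.3) was fitted to log2(TPM + 1) with a group term, a mean-variance trend and moderated variances, two-sided, over the 10936 of 25630 rows whose mean reached 1 TPM. The model had 2 residual degrees of freedom, to which moderation added 9.53. The 699 rows named by Ensembl identifier were matched through a table of gene names. Near copies were sought with blastn 2.17.0 (at least 90% identity over 200 bases) among GENCODE M21 transcripts, and promoter sequences are RefSeq's, GRCm38.p6.

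The 9 enzymes and the lists were chosen with earlier results of these data known. Named were the 9 enzymes, every called gene of each list and up to 4 others of smallest p, and the 3 rows with the most similar profile. Subunits set beside an enzyme, the ratios, Csl, Gm48254 and Styxl1 were added after values were seen. Some genes of these pathways are not reported here. Other pseudocounts, filters, scalings, moderation, a replicate block and leaving out each library were tried.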

Additional observations from a re-analysis of the deposited data

How the results depend on the processing

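The limits are the 2 libraries per group and TPM as a relative scale. Of the 9 enzymes 0 were called with all 4 libraries under each alternative; the lowest limma adjusted p was 0.069, with each library centred on its median, and without the filter 2565 rows had an unadjusted p under 0.05 while 0 were called. The number of enzymes at an unadjusted p under 0.05, 3 with all libraries, was 1 with a pseudocount of 0.1 TPM, 1 with the replicate block, 0 without the trend and 4 without the filter. Among all 10936 rows tested, 2569 were under that p in the main fit and 2573 with that pseudocount. With the block they numbered 2168 and without the trend 2480, while without the filter they were 2565 of 25630. The cause of the changes below was not tested.

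With all libraries 731 rows were called (500 higher, 231 lower), and 4 neighbouring genes higher and 1 lower. Without the filter these were 0 rows (0 higher, 0 lower) and 0 neighbours (0 and 0). Median centring moved the all-row median of log2 fold changes from 0.12 to −0.063 and gave 314 rows (160 higher, 51.0% of calls against 68.4%) and 2 neighbours, 1 of them higher; quantile normalisation moved that median to −0.012 and gave 360 rows (216 higher, 144 lower) and 2 neighbours, 1 of them higher. Without the trend 144 rows were lower, and 2 neighbours were called, 2 higher and 0 lower; with a pseudocount of 5 TPM 0 neighbours were lower. Leaving out 1 library gave 233 to 3270 rows (145 to 2525 higher, 86 to 1193 lower), 0 to 3 enzymes (0 to 1 higher, 0 to 2 lower) and 1 to 10 neighbours (1 to 6 higher, 0 to 4 lower). The log2 fold change changed sign for Ogdh (−0.15 after median centring, −0.11 after quantile normalisation, −0.053 to 0.12 with a library left out), Idh2 (0.061 after quantile normalisation, −0.14 to 0.12 with a library left out) and Mdh1 (−0.67 to 0.078 with a library left out); the other 6 enzymes kept theirs under all 13 alternatives.

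The labels number the libraries 1 and 2 in each group. With this number as a replicate block 937 rows were called (600 higher, 337 lower) and 0 of the 9 enzymes. Deviations of the libraries numbered 1 from their group means correlated at r = 0.042 across rows. With 2 libraries in each group this value cannot settle whether libraries of the same number were paired, which the labels do not state.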

Other observations

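Carriers of cycle intermediates were measured too. Of 5 genes 4 were tested and 0 called, with 1 at an unadjusted p under 0.05 by limma. The shares of all rows tested were 6.68% and 23.5%. Slc25a10, the dicarboxylate carrier, was at 17.4 and 17.5 TPM at low and at 12.8 and 8.40 TPM at high density (log2 fold change −0.70 ± 0.31 SE, adjusted p = 0.199 by limma). Slc25a12, an aspartate-glutamate carrier, was at 62.7 and 48.7 TPM at low and 70.1 and 83.9 TPM at high density (adjusted p = 0.295 by limma). Its relative Slc25a13 was at no more than 0.0792 TPM in any library. Slc25a1, the citrate carrier, was at 64.6 and 56.0 TPM at low and at 112 and 48.8 TPM at high density, the high density libraries lying on either side of the low density pair (adjusted p = 0.653 by limma). Slc25a11, the 2-oxoglutarate carrier, was at 70.9 and 59.6 TPM at low and 60.9 and 72.9 TPM at high density (adjusted p = 0.951 by limma).

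Genes of lipoate attachment and of 2-hydroxyglutarate removal were measured as well. Lias, lipoate synthase, was at 41.4 and 45.4 TPM at low and at 34.8 and 68.5 TPM at high density (adjusted p = 0.789 by limma). Lipt1 was at 1.67 and 2.74 TPM at low and 2.02 and 4.66 TPM at high density (adjusted p = 0.627 by limma). D2hgdh, which oxidises the D form of 2-hydroxyglutarate back to 2-oxoglutarate, had a log2 fold change of −0.011 (adjusted p = 0.990 by limma). In each of these 3 genes the groups overlapped.

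Over the 4 libraries, the rows whose centred log2 profile lay nearest to the mean profile of the 9 enzymes were Elavl1, Tsen34 and Gpd1l, at Euclidean distances of 0.0104, 0.0208 and 0.0320 among 9368 rows of at least 5 TPM. Elavl1 was at 70.9 and 63.4 TPM at low and 59.0 and 57.8 TPM at high density (adjusted p = 0.670 by limma). The enzymes themselves lay at distances of 0.143 for Fh1 to 0.802 for Dlst from their own mean. Elavl1, Tsen34 and Gpd1l were picked as the nearest of 9368 rows, so their smaller distances do not show how alike the enzymes are.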
